A study of Mus musculus with 9 samples.

Results

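Megakaryocyte-erythroid progenitors (MEP) of mouse bone marrow carrying an exon 12 mutation of Jak2 were compared with MEP carrying the Jak2 V617F mutation. The comparison took the 6 libraries whose labels name these genotypes, 3 of exon 12 and 3 of V617F, out of 9 libraries in the series. The other 3, labelled wild type (WT) and taken 12 weeks after tamoxifen, enter an alternative fit of all 9 libraries. The E12 mice carried SclCre and the Exon12 allele, and their cells were taken 6 weeks after tamoxifen. The VF mice carried SclCre and the V617F allele, and their cells were taken 12 weeks after tamoxifen. All were on the C57BL/6N background and received tamoxifen by daily injection, which switches on the SclCre recombinase, an enzyme active in blood stem and progenitor cells. Per the labels, MEP were isolated by flow cytometry and their RNA was purified with a PicoPure kit. Smart-Seq2, which amplifies full-length polyadenylated RNA without keeping the strand, was the library method. Every E12 library is from 6 weeks and every VF library from 12 weeks, so the mutation and the time since induction cannot be told apart in any value below. Nothing in the labels states that the libraries of a group are from separate mice, so each p-value reflects the spread among these libraries alone, and that spread may be technical.

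JAK2 is the kinase that carries signals from the receptors for erythropoietin and several other cytokines to STAT transcription factors. V617F lies in its pseudokinase domain and is found in polycythemia vera, essential thrombocythemia and primary myelofibrosis, while exon 12 mutations are found in patients with polycythemia vera, typically with a raised red cell count and without raised platelets. MEP are the bone marrow progenitors from which red cells and the platelet-forming megakaryocytes arise, and the balance between both outcomes is set in part by an opposition of KLF1 (erythroid) and FLI1 (megakaryocytic).

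Library totals ran from 19256431 to 21331168 counts in VF and from 20328414 to 23499914 in E12. Log2 CPM (counts scaled to a common library size with TMM factors) correlated at 0.984 to 0.985 between VF libraries and at 0.948 to 0.967 between E12 libraries, against 0.895 to 0.927 between the groups. The library E12 5 stood apart. Hemoglobin genes took 3.37% of its counts, against 0.104% in E12 1, 0.0787% in E12 2 and at most 0.00652% in VF. In E12 5, 75 genes were above 10 CPM and over 8 times both other E12 libraries, 7 of them hemoglobin genes. It was the E12 library with Xist RNA (1411 CPM, against 3.89 and 3.71) and almost without the Y-linked Ddx3y (0.863 CPM, against 68.8 and 73.9). VF 1 and VF 2 held both Xist (654 and 281 CPM) and Ddx3y (42.5 and 63.9 CPM), and VF 3 had 1.89 CPM of Xist and 78.4 of Ddx3y. The summed level of the 13 B cell markers was 1201 CPM in E12 5, 137 and 79.3 in the other E12 libraries and 252 to 471 in VF. Many of the results that E12 5 moves are given with and without it.

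**Figure D1:**
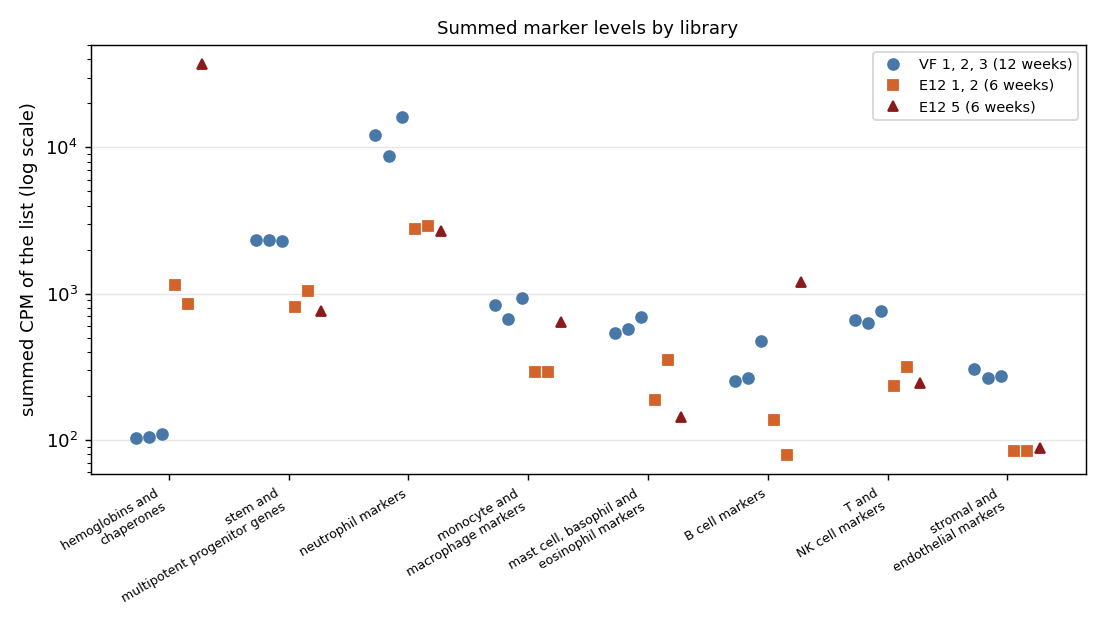
Summed CPM (log scale) of the genes of 8 lists in each library. E12 5 is the highest library for hemoglobins and for B cell markers, while the summed stem cell and neutrophil markers of all 3 E12 libraries lie below all VF libraries.

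Of 13356 genes tested, 6412 (48.0%) were called with edgeR (quasi-likelihood test) at an adjusted p under 0.05, where p-values were adjusted by Benjamini-Hochberg over all genes tested. E12 was higher for 3388 genes (25.4% of those tested) and lower for 3024 (22.6%). Each list count below is to be read beside these shares. Changes beyond 4-fold were found for 277 genes higher and 452 lower, and beyond 8-fold for 147 and 124. The CPM of both groups did not overlap for 60.9% of the genes tested. With upper-quartile scaling 47.9% of the genes were called, 19.7% higher and 28.1% lower. The share of calls that were higher in E12 was then 41.2% in place of 52.8%, and the median over all genes shifted from -0.01 to -0.14 on the log2 scale. Without E12 5, 24.7% of the genes were called higher and 25.3% lower, and 5917 of the 6412 genes were among them in the same direction and 0 in the opposite one. When the 3 wild-type libraries joined the fit and shared its estimate of the spread, 437 genes (3.21%) were called, 298 higher and 139 lower, all of them among the 6412.

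**Figure D2:**
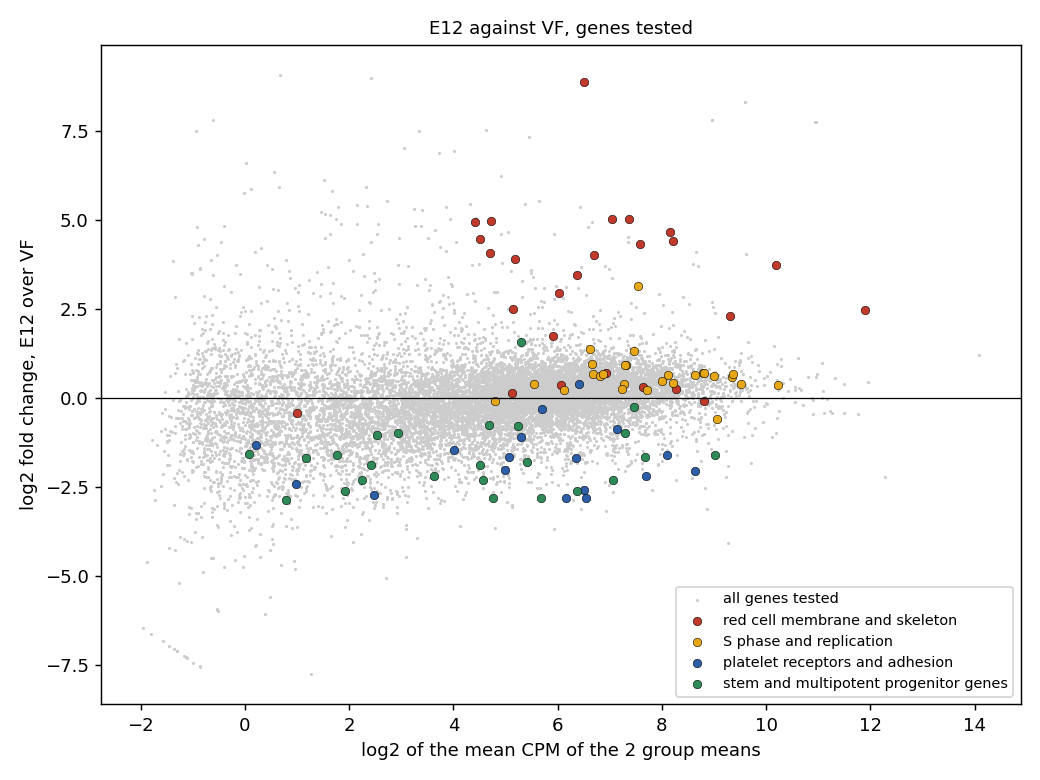
Log2 fold change of E12 over VF against the log2 of the mean CPM for the 13356 genes tested (gray), with 4 gene lists in color. Most red cell membrane and skeleton genes lie above 0 by several log2 units, replication genes slightly above, and most platelet receptor and stem cell genes below.

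Jak2 RNA itself was lower in E12. Jak2 (Entrez 16452, GRCm38 chromosome 19, 29251803 to 29313095) had 103, 109 and 99.3 CPM in VF and 43.9, 51.6 and 46.2 CPM in E12. The groups did not overlap, and the log2 fold change was -1.14 ± 0.10 (SE, adjusted p = 9e-05). These counts sum reads over the gene and do not read which mutation a library carries. Among the 15 members of the JAK2 and signal relay list, 3 were higher (20.0%) and 4 lower (26.7%), beside 25.4% and 22.6% of all genes tested. The median log2 fold change was -0.12, beside -0.01 for all genes tested. In the fit with the wild-type libraries, where 3.21% of all genes were called, no member of this list was, Jak2 included. Stat3, which relays signals of interleukin-6 type cytokines, fell from 248, 238 and 269 CPM to 106, 134 and 80.5 (log2 fold change -1.23 ± 0.17, adjusted p = 0.00063). Stat5a and Stat5b, the STATs used by the erythropoietin receptor, were not called (log2 fold changes 0.26 ± 0.11 and -0.12 ± 0.11, adjusted p = 0.087 and 0.40), and their groups overlapped. Without E12 5, Stat5a was called higher (0.34, adjusted p = 0.028). Gab2, an adaptor of cytokine receptors, rose by 0.87 ± 0.14 on the log2 scale (adjusted p = 0.0012).

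The erythropoietin receptor was higher in E12, while most of the listed cytokine and growth factor receptors were lower. Epor, the erythropoietin receptor (Entrez 13857, chromosome 9, 21958897 to 21963576), had 27.9, 41.3 and 34.1 CPM in VF and 183, 132 and 198 in E12. Its lowest E12 library was above its highest VF library, and its RNA was 4.97-fold higher (log2 fold change 2.31 ± 0.19, adjusted p = 6.8e-05). In the list of 16 cytokine and growth factor receptors, 3 were higher (Epor and the transferrin receptors Tfrc and Tfr2) and 12 lower. The lower ones included Kit, the stem cell factor receptor, at 595, 644 and 702 CPM in VF and 358, 441 and 350 in E12 (log2 fold change -0.76 ± 0.12, adjusted p = 0.0011). They also included the receptor chains Csf2rb (-1.61 ± 0.31), Csf3r (-1.53 ± 0.25) and Il6st (-1.62 ± 0.38), which were picked after their values were seen. In the fit with the wild-type libraries 2 of this list were higher and 0 lower, so none of the 12 lower calls was kept.

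Targets of JAK2 and STAT5 did not move as a block. Of 15 listed, 1 was higher, 6 were lower and 8 were not called, with a median log2 fold change of -0.55. In the fit with the wild-type libraries none of the 15 was called. Socs2, a feedback inhibitor of cytokine receptors, had 33.2, 33.5 and 32.8 CPM in VF and 7.42, 7.84 and 15.9 in E12, the last from E12 5. All E12 libraries were below all VF libraries (log2 fold change -1.68 ± 0.28, adjusted p = 0.0018). Cish, another feedback inhibitor, had 18.5, 16.7 and 22.8 CPM in VF and 29.2, 20.2 and 43.9 in E12, where the groups overlapped (0.68 ± 0.27, adjusted p = 0.066). Osm, the cytokine oncostatin M, was the gene of this list that rose (1.30 ± 0.18, adjusted p = 0.00066). Socs3 was called lower (-1.31 ± 0.44, adjusted p = 0.038), its adjusted p was 0.062 without E12 5, and leaving out any one VF library or E12 1 also ended the call. Pim1 (-0.59 ± 0.27, adjusted p = 0.10) and Socs1 (-0.42 ± 0.28, adjusted p = 0.24, and 0.047 without E12 5) were not called, and Pim2, a survival kinase, fell by 1.11 (adjusted p = 0.0046).

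Most listed genes of erythroid regulation, the red cell membrane, heme and iron were higher in E12, while most of those for red cell maturation and autophagy were not called. Of 15 erythroid transcription factors, 10 were higher and 2 lower (median log2 fold change 0.66). Gata1, the factor that drives the erythroid program (Entrez 14460, chromosome X, 7959260 to 7976663), had 212, 255 and 223 CPM in VF and 571, 472 and 538 in E12 (1.20 ± 0.11, adjusted p = 0.0001). Klf1, which activates globin and red cell membrane genes (Entrez 16596, chromosome 8, 84901982 to 84905291), had 83.9, 193 and 124 CPM in VF and 981, 776 and 844 in E12. VF 2 was the highest VF library for Klf1 and still lay below all E12 libraries (log2 fold change 2.70 ± 0.28, adjusted p = 0.00017). Ikzf1 rose by 1.20 ± 0.08 (adjusted p = 3.8e-05) and Bcl11a, a repressor in globin switching, by 0.83 ± 0.08 (adjusted p = 0.00015). Nfe2, which serves both lineages, fell by 1.03 (adjusted p = 9.7e-05). Of 16 genes of red cell maturation and autophagy, 5 were higher, 1 was lower and 10 were not called (median 0.08), and without E12 5, 5 were higher and 3 lower (median -0.04). Rnf123, a ubiquitin ligase, rose by 1.30 ± 0.11 (adjusted p = 8.6e-05), and Map1lc3b, an autophagosome protein, fell by 0.83 (adjusted p = 0.00013).

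Of 26 red cell membrane and skeleton genes, 21 were higher and 0 lower, with a median log2 fold change of 3.60. Without E12 5, again 21 were higher and 0 lower (24.7% of all genes were called higher in that fit), with a median of 3.31. In the fit with the wild-type libraries 17 were higher and 0 lower, beside 2.19% and 1.02% of all genes. Rhag, part of the Rh blood group complex (Entrez 19743, chromosome 17, 40811099 to 40844094), had 14.9, 24.8 and 25.3 CPM in VF and 560, 450 and 639 in E12 (4.67 ± 0.24, adjusted p = 1.9e-05). Car2, an abundant carbonic anhydrase of red cells, went from 1054, 1366 and 1059 CPM to 7282, 5635 and 6427 (2.47 ± 0.14, adjusted p = 2.2e-05). Sptb, the beta chain of spectrin, had 4.22, 5.33 and 4.17 CPM in VF and 67.2, 42.3 and 94.4 in E12 (3.89 ± 0.30). Kel, a blood group antigen, rose by 3.45 ± 0.28. Ank1 (ankyrin) and Add2 (adducin), taken after their values were seen, rose by 4.98 ± 0.44 and 5.01 ± 0.44. Slc4a1, the band 3 anion exchanger of late erythroblasts, had 0.0888, 0.353 and 0.727 CPM in VF and 7.37, 4.55 and 535 in E12, so its fold change rests largely on E12 5. Its log2 fold change was 8.88 ± 2.27 (adjusted p = 0.013) and 3.94 without E12 5 (adjusted p = 0.001), and leaving out any one VF library ended the call (adjusted p up to 0.055).

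**Figure D3:**
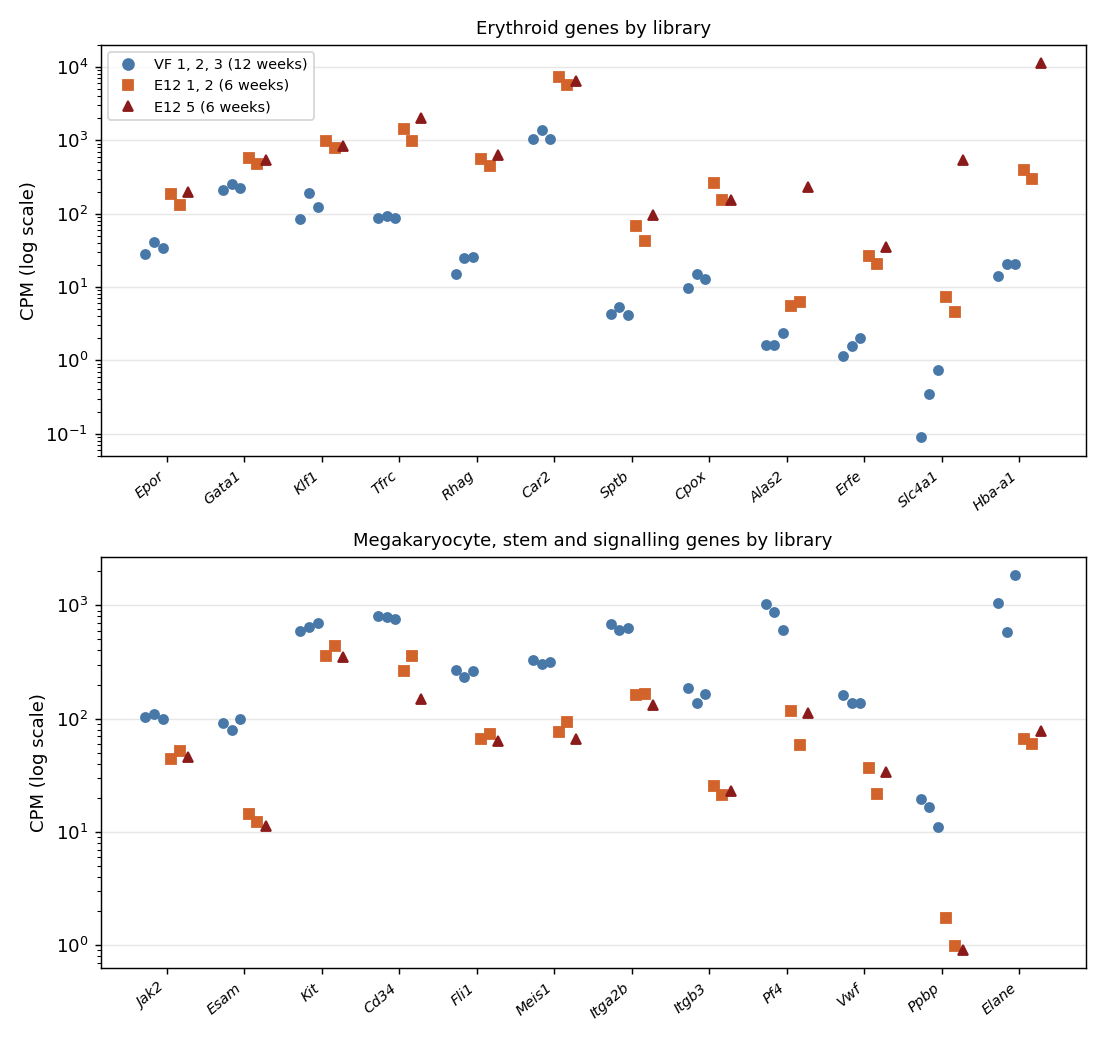
CPM (log scale) of 24 genes in each of the 6 libraries, erythroid genes in the upper panel and megakaryocyte, stem cell and signalling genes in the lower panel. All E12 libraries lie above all VF libraries for each gene of the upper panel and below them for each gene of the lower panel, and E12 5 is far above E12 1 and E12 2 for Alas2, Slc4a1 and Hba-a1.

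Adult hemoglobin RNA was higher in every E12 library, by very different amounts. Hba-a1 had 13.9, 20.6 and 20.3 CPM in VF, 397 and 298 CPM in E12 1 and E12 2, and 11216 CPM in E12 5. The log2 fold change of 7.76 ± 1.55 (adjusted p = 0.004) became 4.25 without E12 5 (adjusted p = 3.4e-06). Hbb-bt had 4.93, 4.23 and 4.07 CPM in VF and 73.1, 47.9 and 2856 CPM in E12. Hba-a1 and Hba-a2 had near-equal counts, as had Hbb-bt and Hbb-b2, and Hbb-bs and Hbb-b1. These are near-identical copies or overlapping entries, so the 6 genes called higher are not 6 separate observations. In bulk RNA, more cells that make hemoglobin and more hemoglobin RNA per cell cannot be told apart.

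Of the 14 genes of heme synthesis and its transporters, 12 were higher and 1 lower, with a median log2 fold change of 1.62 (1.48 without E12 5, with the same counts). Cpox, which makes protoporphyrinogen, had 9.55, 15.2 and 12.9 CPM in VF and 261, 155 and 153 in E12 (3.92 ± 0.26, adjusted p = 3.3e-05). Abcb6 rose by 2.44 ± 0.15, and Slc25a38, the mitochondrial carrier that supplies glycine for heme, by 2.04 ± 0.17. The enzyme of the first step has an erythroid form, Alas2, and a general form, Alas1, and they were looked up after their values were seen. Alas2 had 1.60, 1.63 and 2.33 CPM in VF and 5.5, 6.29 and 231 in E12, while Alas1 fell from 202, 140 and 267 CPM to 70.6, 78.1 and 63.3 (-1.52 ± 0.21, adjusted p = 0.00069). The log2 fold change of Alas2 was 5.45 ± 1.51 (adjusted p = 0.018) and 1.67 without E12 5 (adjusted p = 0.0041), and leaving out any one VF library ended the call (adjusted p up to 0.069). Alas1 was the member of the list called lower.

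Iron uptake genes were higher as well. Tfrc, which takes up transferrin-bound iron (Entrez 22042, chromosome 16, 32608896 to 32632794), had 88.2, 91.7 and 88.2 CPM in VF and 1415, 983 and 2012 in E12. It was 16.5-fold higher (4.04 ± 0.25, adjusted p = 2.6e-05) and kept an adjusted p of 0.0018 in the fit with the wild-type libraries. Of 13 iron handling genes tested, 9 were higher and 2 lower. Steap3, which reduces iron in the endosome, rose by 2.66 ± 0.15 and Slc11a2, which moves it into the cytosol, by 1.93 ± 0.14. Slc40a1, the iron exporter ferroportin, rose by 3.15 ± 0.26 (adjusted p = 6.8e-05). Erfe, the erythroblast hormone that lowers hepcidin, had 1.15, 1.59 and 2.03 CPM in VF and 26.8, 20.6 and 35.1 in E12 (4.11 ± 0.30, adjusted p = 4.3e-05). In the fit with the wild-type libraries 3 erythroid transcription factors, 5 heme genes and 4 iron genes were higher and 0 lower.

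Megakaryocyte genes went the other way. Of 12 megakaryocyte transcription factors tested, 0 were higher and 8 lower, with a median log2 fold change of -0.94. Fli1 had 267, 233 and 263 CPM in VF and 66.4, 72.7 and 63.6 in E12, with narrow spread in both groups (-1.91 ± 0.09, adjusted p = 1.6e-05). Meis1 fell by 2.01 (adjusted p = 2.8e-05), Mef2c by 1.63 (adjusted p = 5.7e-05) and Runx1 by 1.18 (adjusted p = 0.00029). Gata2 was not called (-0.67 ± 0.32, adjusted p = 0.12): E12 2, at 333 CPM, lay within the VF range of 318 to 348, while E12 1 and E12 5 had 178 and 115.

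Of 17 platelet receptor and adhesion genes tested, 14 were lower and 1 higher, with a median of -1.70. Itga2b, the CD41 integrin (Entrez 16399, chromosome 11, 102453297 to 102469883), had 689, 610 and 627 CPM in VF and 161, 166 and 133 in E12 (-2.06 ± 0.11, adjusted p = 2.1e-05). Its partner Itgb3 (CD61) went from 187, 137 and 166 CPM to 25.6, 21.3 and 23.0 (-2.81 ± 0.14, adjusted p = 1.8e-05). F2rl2, a thrombin receptor, fell by 2.60 and the tetraspanin Cd9 by 2.20 (adjusted p = 1.6e-05 for each). Of 25 genes of platelet granules and cytoskeleton, 18 were lower and 1 higher, with a median of -1.83. Pf4, platelet factor 4 (Entrez 56744, chromosome 5, 90772435 to 90773383), had 1039, 870 and 600 CPM in VF and 117, 59.1 and 112 in E12 (-3.12 ± 0.30, adjusted p = 0.00012). Ppbp, another platelet chemokine, fell by 3.69 (adjusted p = 0.00013) and Vwf, von Willebrand factor, by 2.24 (adjusted p = 8.6e-05). In the fit with the wild-type libraries 4 platelet receptor genes and 6 granule and cytoskeleton genes were lower, and Itga2b and Pf4 were not called (adjusted p = 0.23 and 0.065).

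The promoters of 4 of these genes, 2 higher and 2 lower, are printed to show the letters at their start sites. They are RefSeq windows of 300 bases (build GRCm38.p6, printed 5′ to 3′ on the gene's strand), with capitals for the GATA motif AGATAA and the KLF motif CCNCNCCC on either strand. Epor (chr9:21963527-21963826, minus strand) and Alas2 (chrX:150547167-150547466, plus strand) were higher in E12, and Itga2b (chr11:102469834-102470133, minus strand) and Pf4 (chr5:90772185-90772484, plus strand) were lower.
Epor: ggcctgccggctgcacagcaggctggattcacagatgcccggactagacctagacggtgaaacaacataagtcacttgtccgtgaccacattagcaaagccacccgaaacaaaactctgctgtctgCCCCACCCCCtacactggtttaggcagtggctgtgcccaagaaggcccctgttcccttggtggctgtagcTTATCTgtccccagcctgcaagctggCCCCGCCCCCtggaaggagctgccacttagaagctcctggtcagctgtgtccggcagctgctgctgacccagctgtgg
Alas2: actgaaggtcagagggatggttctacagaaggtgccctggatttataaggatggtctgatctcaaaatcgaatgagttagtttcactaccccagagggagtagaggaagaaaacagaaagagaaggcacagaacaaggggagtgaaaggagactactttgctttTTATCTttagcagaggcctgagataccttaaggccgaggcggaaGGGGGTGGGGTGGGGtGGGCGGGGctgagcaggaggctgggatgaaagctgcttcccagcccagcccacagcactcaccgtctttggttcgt
Itga2b: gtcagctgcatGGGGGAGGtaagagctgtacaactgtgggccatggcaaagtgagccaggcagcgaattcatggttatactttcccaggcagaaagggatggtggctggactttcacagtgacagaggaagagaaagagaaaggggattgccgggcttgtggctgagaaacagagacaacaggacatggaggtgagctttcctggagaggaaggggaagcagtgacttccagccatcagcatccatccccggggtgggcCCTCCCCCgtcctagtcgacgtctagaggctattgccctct
Pf4: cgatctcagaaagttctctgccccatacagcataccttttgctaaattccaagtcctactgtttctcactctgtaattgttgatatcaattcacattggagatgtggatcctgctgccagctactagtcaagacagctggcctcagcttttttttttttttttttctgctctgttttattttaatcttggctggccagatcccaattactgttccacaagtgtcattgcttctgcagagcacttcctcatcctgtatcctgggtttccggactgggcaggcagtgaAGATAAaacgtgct

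Epor, Alas2 and Pf4 hold 1 GATA match each and Itga2b none, and the KLF motif matched 4 times in Epor, 4 times in Alas2, 2 times in Itga2b and not in Pf4 (matches may overlap). The printed promoters do not stand for their groups. Among other promoters looked up, those of Klf1, Rhag, Tfrc, Erfe, Gata1, Ccne1 and Hbb-bt, all higher in E12, held 0 matches to AGATAA. Their KLF matches ran from 0 in Klf1 and Rhag to 7 in Ccne1. The promoters of the platelet genes Gp9, Gp1bb and F2r and of Jak2 also held 0 GATA matches, with 1, 4, 2 and 3 KLF matches. A GATA match was present in 6.89% of the 10540 promoters of genes tested, in 6.72% of those of genes called higher and in 7.57% of those called lower. It was present in 16.1% of the 211 promoters of genes higher beyond 4-fold and in 10.8% of the 332 of genes lower beyond 4-fold. The KLF motif was in 67.1% of all promoters tested, 66.4% of those of genes called higher and 69.5% of those called lower. Beyond 4-fold its shares were 67.3% for higher and 64.5% for lower genes. The ETS motif CGGAAGT was in 13.5% of all promoters tested, 19.8% of those of genes called higher and 8.32% of those called lower, but in 1.90% and 3.01% of those beyond 4-fold. A match is a run of letters in this window and not a bound site. For GATA only AGATAA was searched, so 0 matches does not mean that other spellings are absent. TGATAA, for one, is in the Klf1 and Rhag windows (as TTATCA).

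Stem and multipotent progenitor genes were lower in E12: of 24 tested, 19 were lower and 1 higher, with a median log2 fold change of -1.75. Esam, an adhesion molecule of stem cells and megakaryocytes, had 92.0, 79.2 and 99.8 CPM in VF and 14.3, 12.3 and 11.3 in E12 (-2.83 ± 0.14, adjusted p = 1.8e-05). Mycn fell by 2.63 and Tek, the angiopoietin receptor, by 1.81. In the fit with the wild-type libraries 7 of the list were lower and 1 higher. Cd34 had 799, 794 and 756 CPM in VF and 265, 354 and 148 in E12 (-1.61 ± 0.27, adjusted p = 0.0016). Of the 9 genes used to gate or subdivide MEP, 8 were lower, among them Fcgr3, at 56.5, 36.8 and 79.1 CPM in VF and 6.41, 6.05 and 10.4 in E12 (-2.92 ± 0.32, adjusted p = 0.00022). MEP are sorted as cells low in CD34 and Fc gamma receptor, so the groups differed in the RNA of gate genes. Gata1, Epor and Kit RNA were present in all 6 libraries.

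Markers of several other cell types were lower in E12, and their part in the results above was not tested. Neutrophil markers summed to 8678 to 16069 CPM in VF and 2660 to 2906 in E12. Of 20, 9 were lower and 0 higher, and without E12 5, 19 were lower (25.3% of all genes were called lower in that fit). Elane, neutrophil elastase, had 1054, 583 and 1837 CPM in VF and 66.5, 60.0 and 78.2 in E12 (-4.09 ± 0.39, adjusted p = 0.00012). Mpo, myeloperoxidase, went from 7831, 5868 and 10857 CPM to 2036, 2087 and 1128 (-2.23 ± 0.28, adjusted p = 0.00044). Mast cell, basophil and eosinophil markers summed to 541 to 692 CPM in VF and 143 to 354 in E12. Of 12, 7 were lower and 1 higher (9 and 1 without E12 5), with Mcpt8 falling by 2.40 (adjusted p = 9.1e-05). Monocyte and macrophage markers summed to 671 to 936 CPM in VF and 292 to 638 in E12, highest in E12 5. Of 15, 7 were lower and 3 higher (median -0.85), and without E12 5, 10 were lower and 2 higher. Stromal and endothelial markers summed to 266 to 306 CPM in VF and 84.6 to 87.9 in E12. Of the 11 in the data only 6 could be tested, of which 4 were lower and 1 higher (median -1.84), and 4 lower and 0 higher without E12 5. The 4 lower with all libraries were Vwf, which platelets also hold, Pecam1 (-1.43 ± 0.14, adjusted p = 0.00013), Emcn and Kdr. Whether these 4 falls stand for fewer stromal or endothelial cells was not tested. B cell markers had 0 calls of 12 with all libraries and 9 lower without E12 5. Cd79a, a chain of the B cell receptor, had 10.5, 14.7 and 29.9 CPM in VF, 5.41 and 3.89 in E12 1 and E12 2, and 117 in E12 5. Of 13 T and NK cell markers, 3 were lower (23.1%, near the 22.6% of all genes tested), and 10 were lower without E12 5. Of 25 interferon response genes 3 were lower (12.0%) and 1 higher (4.0%), beside 22.6% and 25.4% of all genes tested. Without E12 5, 13 were lower and 1 higher, where 25.3% and 24.7% of all genes were.

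**Figure D4:**
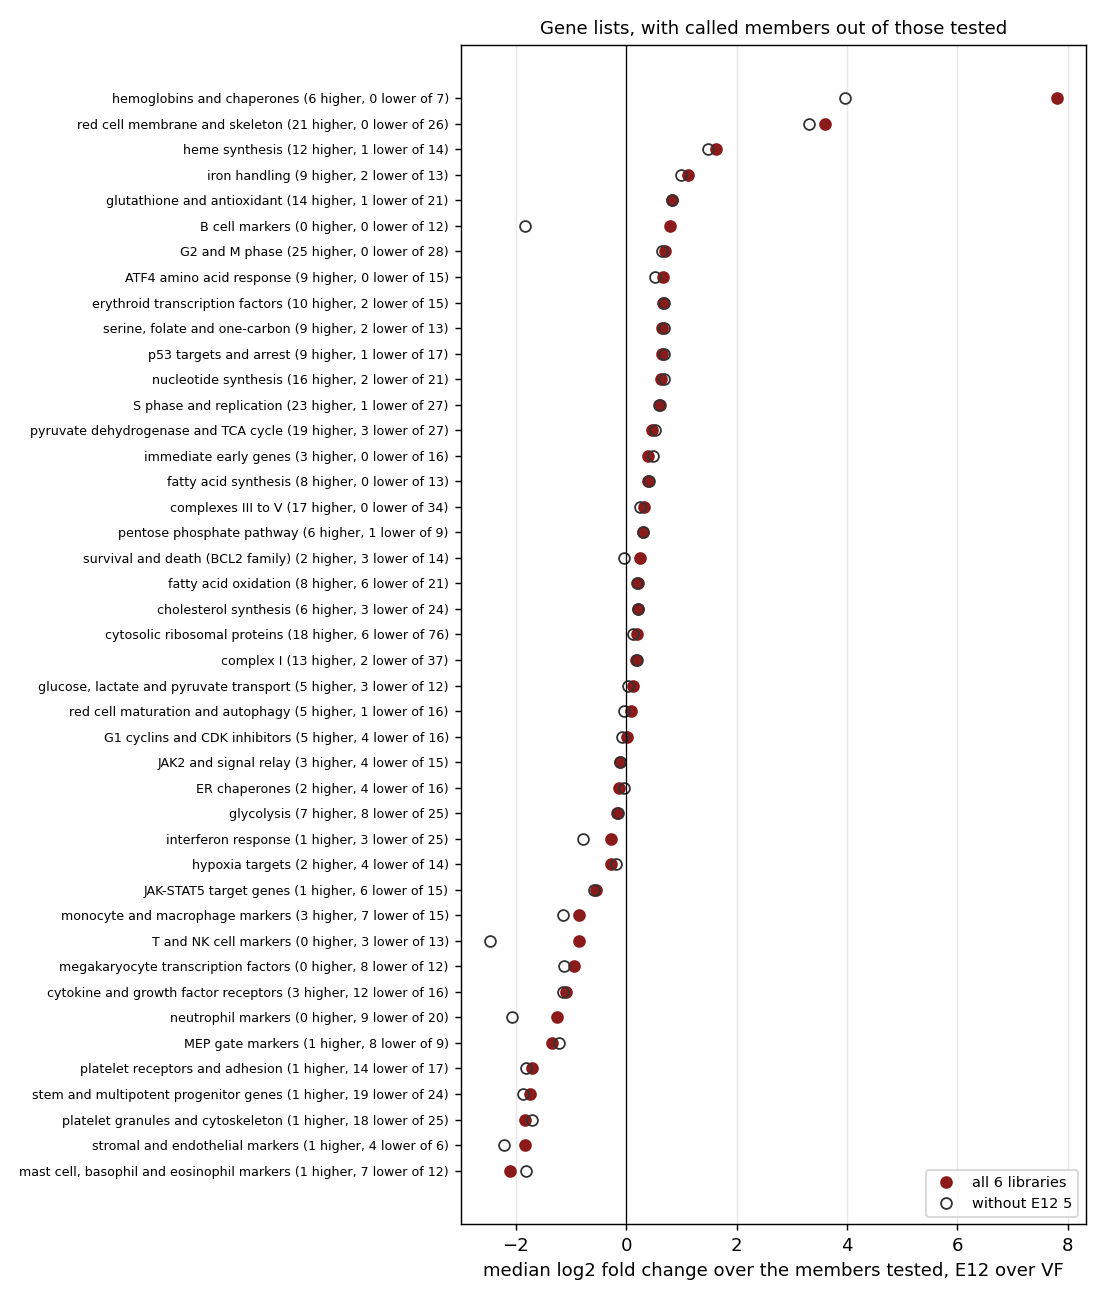
Median log2 fold change of E12 over VF for 43 gene lists, with all 6 libraries (filled) and without E12 5 (open), and the number of members called. Hemoglobin, red cell membrane, heme and iron lists lie at the top, red cell maturation near 0, and the platelet, stem cell, stromal and mast cell lists at the bottom, and the open and filled circles are farthest apart for hemoglobins and B cell markers.

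Genes of DNA replication and division were modestly higher in E12. Of 27 replication genes, 23 were higher and 1 lower, with a median log2 fold change of 0.62 (20 higher and 1 lower with upper-quartile scaling). Ccne1, cyclin E1, which starts replication (Entrez 12447, chromosome 7, 38097984 to 38107490), stood out at 32.1, 45.0 and 36.9 CPM in VF and 353, 296 and 350 in E12 (3.13 ± 0.14, adjusted p = 1.6e-05). Cdc6 and Mcm10, which load and fire replication origins, rose by 1.30 ± 0.08 and 1.36 ± 0.09. Of 28 genes of G2 and mitosis, 25 were higher and 0 lower, with a median of 0.71, and 21 were higher without E12 5. Plk1, a mitotic kinase, went from 100, 100 and 95.2 CPM to 248, 215 and 252 (1.27 ± 0.09, adjusted p = 3.6e-05), and Ccna2, cyclin A2, rose by 1.36 ± 0.15. In the fit with the wild-type libraries 1 replication gene and 2 mitotic genes were higher. G1 regulators were mixed, with 5 of 16 higher (31.2%) and 4 lower (25.0%), beside 25.4% and 22.6% of all genes tested. E2f4, a cell cycle factor with a known role in erythroid cells, rose by 1.68 ± 0.13 (adjusted p = 4.7e-05) and the inhibitor Cdkn2d fell by 1.20 (adjusted p = 0.00016). Of 17 p53 targets, 9 were higher and 1 lower (8 and 3 without E12 5), with Zmat3 rising by 2.47 ± 0.26 and Ccng1 by 1.49 ± 0.15. Of 14 genes of the BCL2 family, 2 were higher (14.3%), 3 lower (21.4%) and 9 not called (median 0.25), beside 25.4% and 22.6% of all genes tested. Bcl2, which blocks cell death, fell by 1.25 (adjusted p = 0.0015), and Bax, which promotes it, rose by 0.65 ± 0.12 (adjusted p = 0.0028).

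Glycolysis, the breakdown of glucose to pyruvate, did not move as a block. Of 25 genes 7 were higher (28.0%) and 8 lower (32.0%), beside 25.4% and 22.6% of all genes tested. The counts were 6 and 11 with upper-quartile scaling, and the median log2 fold change was -0.17. The isozymes of single steps split. Pklr, the pyruvate kinase gene of liver and red cells (Entrez 18770, chromosome 3, 89136122 to 89146815), had 3.06, 7.32 and 4.02 CPM in VF and 139, 99.3 and 115 in E12 (4.61 ± 0.31, adjusted p = 3.1e-05). Pkm, the pyruvate kinase gene of most tissues, picked after its values were seen, had 746, 699 and 799 CPM in VF and 242, 331 and 191 in E12 (-1.55 ± 0.18, adjusted p = 0.00032). Per kilobase of transcript, mean Pklr was 1.71 CPM in VF and 41.9 in E12, and mean Pkm 288 in VF and 98.1 in E12, so Pkm remained the higher of both in E12. Pfkm, a phosphofructokinase, rose by 1.99 ± 0.13, Ldha by 0.57 ± 0.07 and Hk1 (also picked after its values were seen) by 0.90 ± 0.10. Ldhb fell by 2.53 (adjusted p = 8.2e-05) and Aldoc by 2.12 (adjusted p = 0.00019). Hk2 (-0.69 ± 0.21, adjusted p = 0.028) and Pfkfb3 (-0.49 ± 0.16, adjusted p = 0.031) were called lower, and leaving out single libraries took their adjusted p to as much as 0.093 and 0.12.

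Among transporters of glucose, lactate and pyruvate, 5 of 12 were higher (41.7%) and 3 lower (25.0%), beside 25.4% and 22.6% of all genes tested. Slc2a1, the GLUT1 glucose transporter, had 46.6, 48.3 and 43.9 CPM in VF and 16.1, 19.2 and 12.0 in E12 (-1.55 ± 0.18, adjusted p = 0.00028). Slc2a8, another glucose transporter, rose by 1.85 ± 0.15, and Slc16a1, the MCT1 lactate and pyruvate transporter, by 1.76 ± 0.13. The hypoxia targets tested, 14 in all, had 2 higher (14.3%) and 4 lower (28.6%), beside 25.4% and 22.6% of all genes tested.

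Mitochondrial and biosynthetic genes were more often higher than lower. Of 27 genes of the tricarboxylic acid cycle and pyruvate dehydrogenase, 19 were higher and 3 lower (median 0.47), with Cs, citrate synthase, at 215, 232 and 227 CPM in VF and 582, 559 and 561 in E12 (1.34 ± 0.08, adjusted p = 2.4e-05). Of 37 complex I genes 13 were higher (35.1%) and 2 lower (5.41%), beside 25.4% and 22.6% of all genes tested. With upper-quartile scaling the counts were 8 and 4 and the median 0.04, where 19.7% of all genes were higher and 28.1% lower. Of 34 genes of complexes III to V, 17 were higher and 0 lower, with Atp5b, a subunit of ATP synthase, rising by 0.98 ± 0.09. In the fit with the wild-type libraries none of these 3 lists had a called member.

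One-carbon metabolism, which supplies carbon units for nucleotides, included 2 genes that rose more than 4-fold. Mthfd1 had 149, 179 and 170 CPM in VF and 928, 858 and 823 in E12 (2.39 ± 0.10, adjusted p = 1.6e-05), and the mitochondrial Mthfd2 had 44.3, 41.3 and 42.1 CPM and 187, 159 and 191 (2.07 ± 0.10, adjusted p = 1.6e-05). Of 13 genes in this list 9 were higher and 2 lower, and of 21 nucleotide synthesis genes 16 were higher and 2 lower. Cad, the first enzyme of pyrimidine synthesis, rose by 1.32 ± 0.10 and Rrm1, a subunit of ribonucleotide reductase, by 1.16 ± 0.09. Of 15 genes of the ATF4 amino acid response, 9 were higher and 0 lower, and none of the 15 was called in the fit with the wild-type libraries. Asns, asparagine synthetase, had 95, 86.5 and 98.0 CPM in VF and 532, 445 and 501 in E12 (2.40 ± 0.10, adjusted p = 1.6e-05). Of 21 glutathione and antioxidant genes, 14 were higher and 1 lower, with a median of 0.83, and Txnrd2, a mitochondrial thioredoxin reductase, and Prdx3, a mitochondrial peroxidase, rose by 1.65 ± 0.13 and 1.33 ± 0.11. Of 9 pentose phosphate genes 6 were higher and 1 lower, with G6pdx rising by 1.04 ± 0.08.

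**Figure D5:**
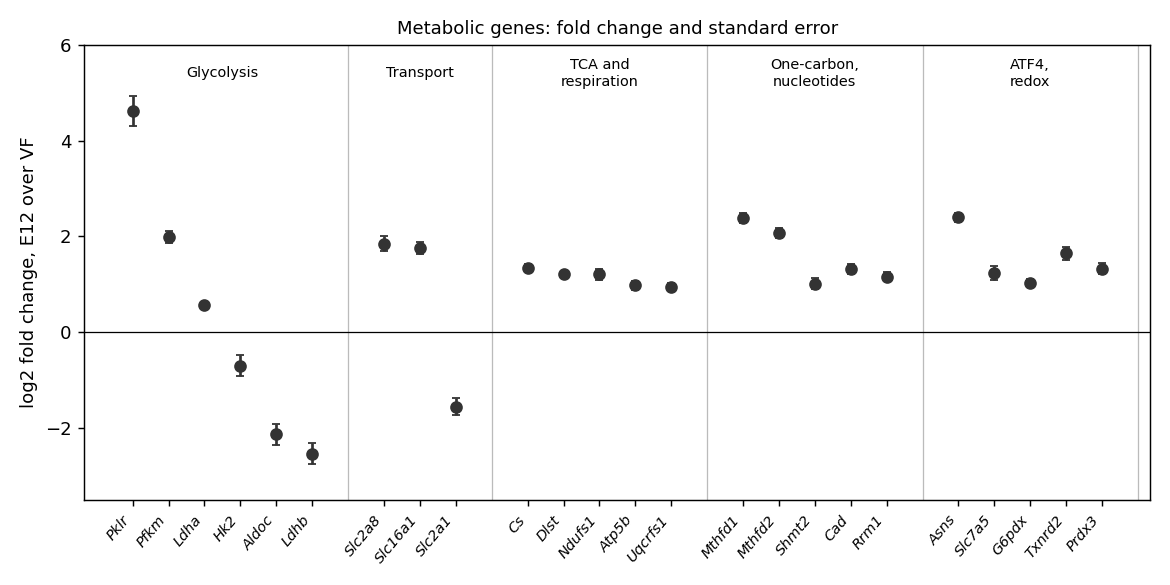
Log2 fold change of E12 over VF with its standard error for 24 metabolic genes. Glycolysis genes run from 4.61 for Pklr to -2.53 for Ldhb, while the genes shown for the tricarboxylic acid cycle, respiration, one-carbon, nucleotide, ATF4 and redox metabolism are all above 0.

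Fatty acid synthesis had 8 of 13 genes higher and 0 lower, with Srebf1, its main regulator, rising by 0.81 ± 0.08. Fatty acid oxidation (8 of 21 higher and 6 lower) and cholesterol synthesis (6 of 24 higher and 3 lower) were mixed. Their shares were 38.1% and 28.6%, and 25.0% and 12.5%, beside 25.4% and 22.6% of all genes tested. Cytosolic ribosomal protein genes had 18 of 76 higher (23.7%) and 6 lower (7.89%), but 11 and 10 with upper-quartile scaling.

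Among genes above 10 CPM whose groups did not overlap, the 10 with the steepest rise were 6 hemoglobin genes, Slc4a1, Cd300e, C2cd4a and Fam124a. C2cd4a had 0.0444, 0.176 and 0.581 CPM in VF and 53, 30.9 and 63.9 in E12 (7.53 ± 0.55, adjusted p = 4.3e-05). Fam124a had 0.222, 0 and 0.0969 CPM in VF and 20.8, 15.8 and 24.0 in E12 (7.49 ± 0.57, adjusted p = 5.1e-05). Cd300e had 1 count in all VF libraries together and 599 in E12, nearly all in E12 5 (30.5 CPM, against 0.824 and 0.704), a ratio of 639 with an exact 95% interval for counting error of 114 to 25300. Its call (adjusted p = 0.0091) was lost without VF 2. The 10 with the steepest fall were Prom1, Sgms2, Elane, Plscr2, Timp3, Ppbp, Clu, Prss34, Pls1 and Myom1. Prom1, the CD133 antigen, had 9.95, 6.04 and 22.1 CPM in VF and 0.137, 0 and 1.02 in E12 (-5.07 ± 1.01, adjusted p = 0.0039). Timp3, an inhibitor of metalloproteinases, had 137, 103 and 101 CPM in VF and 10.6, 3.05 and 12.8 in E12 (-3.69 ± 0.44, adjusted p = 0.00031).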

How the data were processed

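RNA was measured in 9 libraries of sorted MEP, of which 6 were analysed here, 3 E12 and 3 VF, grouped by the genotype in the labels. The deposited counts are whole numbers per gene for 17769 genes with Entrez identifiers, symbols and lengths. A second deposited table holds log2 expression levels, used only as an alternative. The submitters' processing notes name STAR and limma and the builds GRCm38 and mm10. Versions, roles and the counting tool are not given in these sources.

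Counts were filtered with filterByExpr (13356 genes kept), scaled with TMM factors and tested with edgeR 4.0.16 in R 4.3.3 (glmQLFit and glmQLFTest, two-sided, group as the one term). Each p was adjusted by Benjamini-Hochberg over all genes tested, and genes under 0.05 were called. A standard error is the log2 fold change divided by the square root of its quasi-likelihood F. On simulated counts for 13356 genes, with 200 changed, this test found 66% of 2-fold, 84% of 4-fold and 92% of 8-fold changes with 4 false calls. In the data 6412 of 13356 genes were called, far more than were changed in the simulation. Whether the simulated rates hold for a comparison with so many calls was not tested. All libraries of a group differed by more than counting noise. With molecules not labelled, counting intervals cover counting error only.

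The comparison, the 44 gene lists and the named genes were chosen with earlier results of these data known. Named genes were the 10 called genes with the largest change in each direction (at least 10 CPM in the higher group, no overlap), the members of each list that had the lowest p (at most 4), and a set of regulators and controls such as Jak2, Epor and Xist. Some genes are not reported here. A gene outside this rule is said to be picked after its values were seen. Lists are described by counts and medians without a test. Positions and promoters are from RefSeq (GRCm38.p6), and 78.9% of the genes tested had a promoter entry, of which the first window was used. Alternatives were other scalings (RLE, upper quartile), other filters, DESeq2 1.42.0, limma 3.58.1 (voom, and on the deposited log2 levels), gene length offsets, a replicate block, the 9-library fit, no hemoglobin genes, and each library left out.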

Additional observations from a re-analysis of the deposited data

How the results depend on the processing

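The 6412 calls (3388 higher, 3024 lower) stayed within 1.5 times under all alternatives except the fit with the 3 wild-type libraries, which called 437 genes (298 higher, 139 lower); the cause was not tested. With 1 library left out in turn, 4846 to 6831 genes were called in all, 2670 to 3379 higher and 2176 to 3452 lower. Of 218 named genes, 141 lost their call in the fit with the wild-type libraries, at most 13 did when 1 library was left out, and 0 did with RLE factors, gene length offsets or no hemoglobin genes. The 44 lists gave 88 counts of members called higher or lower. Of these counts, 70 moved by more than 1.5 times, or to or from 0, in the fit with the wild-type libraries. At most 21 did so under any other alternative. Without E12 5 the log2 fold changes of Blnk, Cd79a and Xist, not called at 0.89, 1.19 and 0.60 with all libraries, were called at -1.34, -1.98 and -6.36, and with a replicate block they were -0.97, -1.43 and -6.84. With 1 library left out in turn they ran from -1.34 to 1.39, from -1.98 to 1.73 and from -6.36 to 1.74. The groups share replicate numbers 1 and 2 only, and the deviations of these libraries from their group means correlated at 0.0119 and 0.114. These values cannot show or exclude a pairing, because E12 1 and E12 2 both deviate mainly away from E12 5. VF 2 correlated at 0.125 with E12 1 as well. With the replicate block 2754 genes were higher and 2635 lower. VF 3 and E12 5 have no counterpart of the same number, so they add nothing to the fold changes of that fit. For E12 5 the block is therefore not a check apart from leaving it out. DESeq2 gave no adjusted p for 44 genes. Slc4a1, Alas2, Hk2, Pfkfb3, Socs3, Cd300e and Prss34 are among the genes named above that lost their call without single libraries. Genes at a few counts, such as Cd300e, are limited by counting error, and 3 libraries a group limit all tests.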

Other observations

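Genes in none of the lists were looked at by the size of their p, after their values were seen. Lmna, which encodes the nuclear lamins A and C, had 18.0, 21.3 and 18.3 CPM in VF and 255, 197 and 253 in E12 (log2 fold change 3.61 ± 0.14, adjusted p = 1.6e-05). The metallothioneins Mt1 and Mt2, which bind zinc and copper, were higher in all 3 E12 libraries, and Mt2 was added by name rather than by its p. Mt1 had 74.7, 66.4 and 77.5 CPM in VF and 466, 389 and 478 in E12 (2.61 ± 0.11, adjusted p = 1.6e-05), and Mt2 had 2.04, 6.17 and 3.92 CPM and 160, 143 and 201 (5.37 ± 0.34, adjusted p = 2.8e-05). Sfrp4, a secreted Wnt antagonist, was near 0 in VF (0.178, 0.529 and 0.920 CPM) and had 89.1, 77.8 and 93.9 CPM in E12 (7.33 ± 0.35, adjusted p = 1.6e-05). Slc29a1, a nucleoside transporter, rose by 1.88 ± 0.10, and Slc19a1, the folate carrier, by 1.53 ± 0.09. Plek, pleckstrin of platelets, had 563, 514 and 466 CPM in VF and 95, 104 and 111 in E12 (-2.31 ± 0.11, adjusted p = 1.6e-05). In these genes E12 5 lay close to the other E12 libraries.

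Other genes were high in E12 5 alone among the E12 libraries. They too were picked after their values were seen. Apol11b had 1.05 and 1.36 CPM in E12 1 and E12 2 and 75.8 in E12 5, and Fcgr4, an Fc receptor of myeloid cells, had 0.183, 1.97 and 63.4. C1qb, a complement gene of macrophages, had 0.641, 2.06 and 36.1 CPM in E12, at most 0.388 in VF, while 7 of the 15 monocyte and macrophage markers were lower in E12 and 3 higher. Spib, a B and dendritic cell factor, had 1.33, 0.0938 and 51.9 CPM in E12. Apol11b (adjusted p = 0.019) and C1qb (adjusted p = 0.016) were called higher, and leaving out any one VF library ended both calls, as leaving out E12 5 did for Apol11b. Fcgr4 (adjusted p = 0.055) and Spib (adjusted p = 0.13) were not called.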
